A study of Mus musculus with 12 samples.

Results

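Gastrocnemius muscle lacking the glucocorticoid receptor (GR, encoded by Nr3c1) in its fibers was compared with floxed control muscle in mice given vehicle, that is, at the animals' own hormone levels. The 2 libraries are Gas_GRmKO_vehicle and Gas_GRff_vehicle, out of 12 libraries that cover gastrocnemius, liver and gonadal white adipose tissue (WAT), and each is a single pool of RNA from 3 mice. All animals were male C57BL/6J mice carrying floxed Nr3c1, whose exon 3 codes for part of the DNA-binding domain. GRf/f mice carried the floxed alleles alone, and GRmKO mice also carried Cre driven by the Acta1 (skeletal alpha-actin) promoter, which deletes the exon in muscle fibers from development on and spares the other cells of the muscle. The mice were 8 weeks old at the start and drank water with 1% ethanol for 4 weeks as vehicle. A second pair of gastrocnemius libraries, GRf/f and GRmKO mice that received corticosterone (CORT) at 100 µg/mL in the same solvent for the same time, shares no library with the vehicle pair and was used for comparison. Of 22273 genes in the gastrocnemius files, 13543 had a value above 0 in all 4 gastrocnemius libraries and were tested; the other 8730 were not.

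GR is a nuclear receptor that glucocorticoids such as corticosterone release from a chaperone complex in the cytoplasm, after which it enters the nucleus and raises or lowers the transcription of its target genes. In skeletal muscle it is known for driving genes of protein breakdown, amino acid release and glucose sparing during fasting, stress and hormone excess. Among its widely shared targets are Fkbp5, which feeds back on the receptor's own chaperone complex, the clock gene Per1, and Tsc22d3, an anti-inflammatory leucine zipper protein.

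The libraries held 19394572 to 20357253 estimated counts each, and levels are given below as counts per 1000000 of the library (CPM). With 1 library per group there is no replicate error. Genes were therefore called with the simulation mode of NOISeq, which sets each difference against technical noise simulated from the same libraries, and the 95% intervals given with log2 changes cover counting error only. The log2 change is that of GRmKO over GRf/f after 0.5 CPM was added to both. The intervals are of the ratio without that addition. For genes at low levels the log2 change can therefore lie near or beyond an end of its interval. A pair of features of the libraries runs through the whole comparison. The first is transcript length: the median log2 change was 0.52 for transcripts of up to 750 nucleotides and -0.27 for those above 6000 nucleotides, in a nearly even decline. The CORT pair declined in the same way, from 0.69 to -0.36, while liver under vehicle went from 0.13 to 0.04 and gonadal WAT from -0.05 to 0.07. Called genes followed it, with a median transcript length of 1429 nucleotides for those called higher, 4892 for those called lower and 2945 for all genes tested. Results were therefore computed again after length centring, in which the running median change of transcripts of similar length was subtracted from each gene, and the outcome is given below where a list's calls or the sign of its vehicle median changed. The part of transcript length in any single call was not tested.

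**Figure D1:**
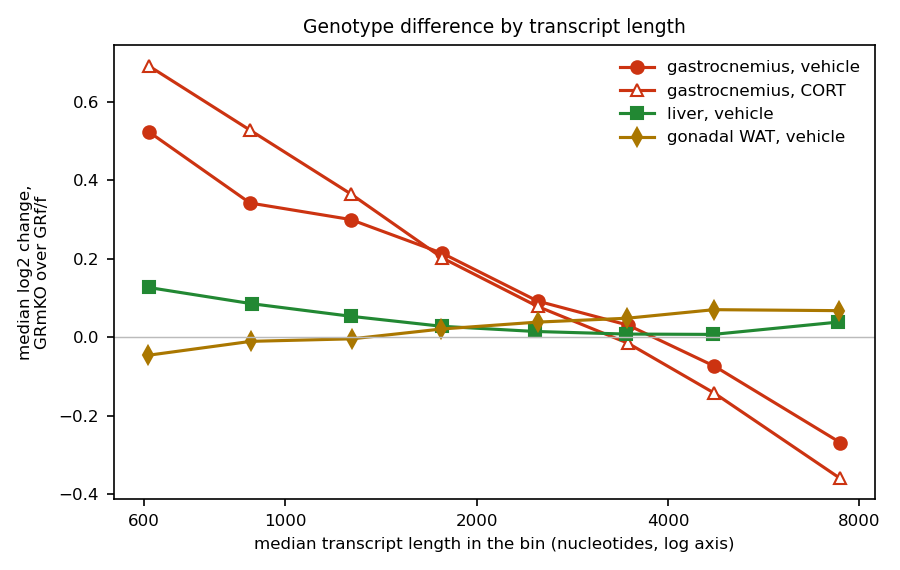
Median log2 change of GRmKO over GRf/f in 8 bins of transcript length (x axis, log scale), for the vehicle and CORT pairs of gastrocnemius and the vehicle pairs of liver and gonadal WAT. Both gastrocnemius lines fall with length, from 0.52 to -0.27 under vehicle, and the liver and WAT lines stay near 0.

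The second feature is that each gene has 1 value tied to 1 transcript identifier, and some genes are listed at 0 in one library and well above it in the others. Ezh1, a histone methyltransferase, was listed at 0 in GRf/f vehicle, at 47.3 CPM in GRmKO vehicle, at 34.2 CPM in GRf/f CORT and at 38.9 CPM in GRmKO CORT. Of the untested genes, 79 had at least 10 CPM in a vehicle library. A change of a gene and a shift of reads to another of its transcripts cannot be told apart here. That limit covers genes low in only 1 of the 4 libraries and genes low in both GRmKO libraries alike.

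The targeted gene was checked first. Nr3c1 stood at 113 CPM in GRf/f vehicle and 46.4 CPM in GRmKO vehicle, and at 90.4 and 35.5 CPM in the CORT pair. Both GRmKO libraries lay below both GRf/f libraries. The GRmKO vehicle value was 41.2% of the control (log2 change -1.27, interval -1.39 to -1.17), and the gene was called lower. The files do not resolve exons, so transcripts of the deleted allele that keep the other exons and transcripts from cells outside the Cre's reach cannot be told apart in what remained. In liver the 2 vehicle genotypes had 58.0 (GRf/f) and 60.8 CPM (GRmKO) of Nr3c1, and in gonadal WAT 155 and 158 CPM. Nr3c2, the mineralocorticoid receptor, which also binds corticosterone, had 8.79 and 13.3 CPM in the vehicle muscles and was not called. Hsd11b1, the enzyme that regenerates active glucocorticoid inside cells, rose from 5.99 to 16.6 CPM (log2 change 1.40, interval 1.17 to 1.79), and was 11.3 and 10.1 CPM in the GRf/f and GRmKO libraries of the CORT pair. The call on Hsd11b1 did not hold after length centring. Together with Fkbp5, these were the calls among 13 genes of corticosteroid receptors and hormone handling, 2 lower and 1 higher (median -0.04).

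Across all genes tested, 248 were called higher in GRmKO (1.83% of 13543) and 219 were called lower (1.62%). The median log2 change of all genes was 0.07. The balance depended on scaling: 53.1% of calls were higher with library totals and 42.4% with TMM factors, a scaling that sets the bulk of genes to no change. With values divided by transcript length, 70.2% of calls were higher. With length centring, 161 genes were called higher and 195 lower, of which 146 and 172 were among the calls made without it. In the vehicle pairs of liver and gonadal WAT, where the receptor gene is intact, 0.577% and 0.802% of tested genes were called in either direction.

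Genes that glucocorticoids are known to induce were lower in part, and by unequal amounts. Of 29 such genes tested, 5 fell and 1 rose, with a median log2 change of -0.10 (-0.27 after length centring, with 6 lower and none higher). Arrdc2, an arrestin-domain protein, showed the largest difference of the list. It was at 147 CPM in GRf/f vehicle and 7.95 CPM in GRmKO vehicle, and at 51.5 and 8.21 CPM under CORT. The GRmKO libraries held it at one low level whatever the mice drank, and the log2 change under vehicle was -4.13 (interval -4.45 to -3.98). Per1 fell from 80.6 to 19.7 CPM (log2 change -2.01, interval -2.20 to -1.87). Under CORT, Per1 was 33.1 CPM in GRf/f and 29.2 CPM in GRmKO, so the vehicle-treated control stood above the other 3 libraries. Zbtb16, a transcription factor also called PLZF, fell from 78.6 to 30.8 CPM, and its CORT pair was 159 and 31.4 CPM. Fkbp5 fell from 61.9 to 30.0 CPM (log2 change -1.03, interval -1.19 to -0.90). With CORT the same gene was 355 CPM in GRf/f and 20.8 CPM in GRmKO, a log2 change of -4.06. Pdk4, the kinase that shuts off pyruvate dehydrogenase, fell from 406 to 214 CPM, whereas both CORT libraries held about the same amount, 967 and 970 CPM. Mt2, a metallothionein, was the member that rose, from 14.0 to 28.5 CPM, and that call was lost under TMM factors and after length centring. It was also the only call among 13 metallothionein and NRF2 target genes (median 0.35).

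Other well-known targets showed little difference under vehicle. Tsc22d3 was 276 CPM in GRf/f and 258 CPM in GRmKO (log2 change -0.10, interval -0.15 to -0.04). Klf15, a transcription factor that promotes branched-chain amino acid breakdown, was 40.6 and 39.2 CPM, and its interval of -0.19 to 0.09 included no change. Neither gene was called in the CORT pair. Glul, glutamine synthetase, was 464 CPM in GRf/f vehicle and 330 CPM in GRmKO vehicle, a log2 change of -0.49 that was not called, against 662 and 229 CPM in the CORT pair. Pik3r1 (31.9 and 32.5 CPM) and Cdkn1a (37.3 and 37.5 CPM) were at nearly equal levels in the vehicle muscles and were called lower in GRmKO in the CORT pair.

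**Figure D2:**
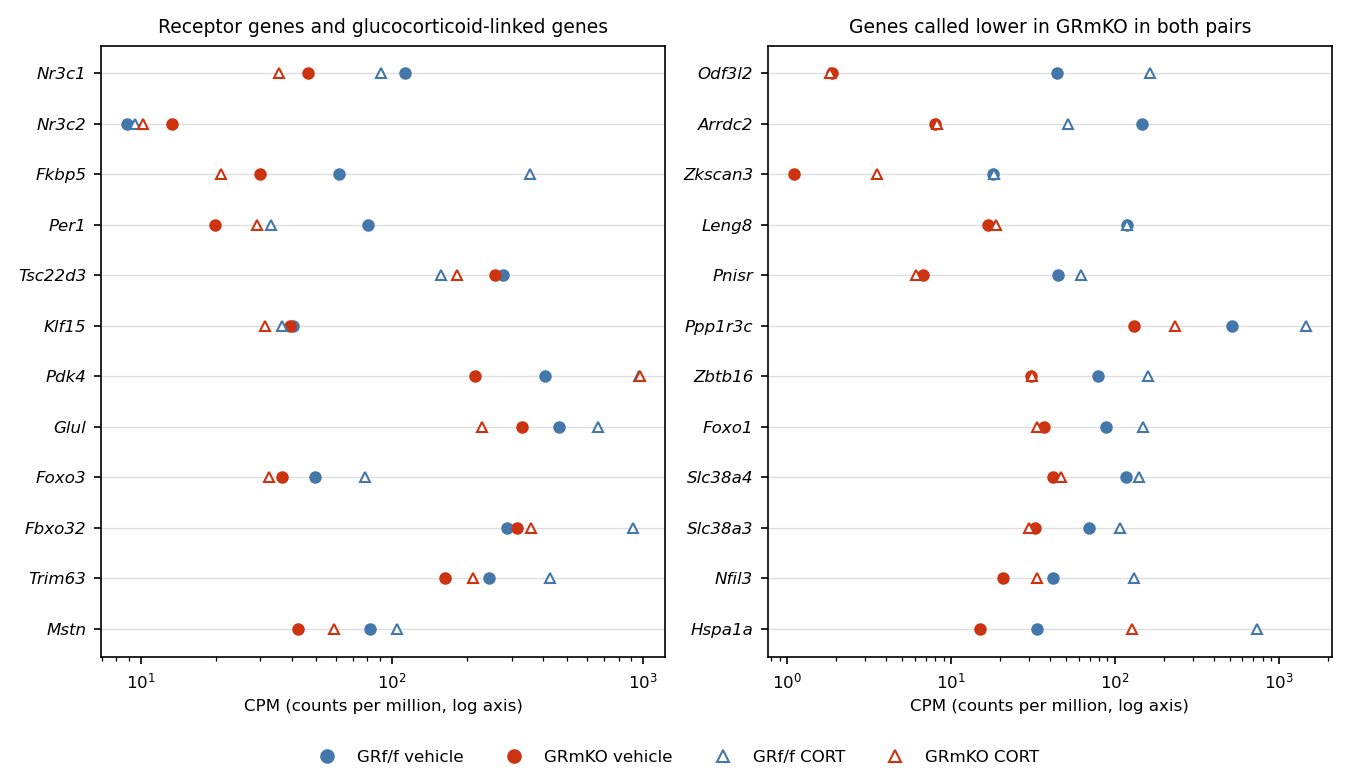
CPM (log axis) of 12 receptor and glucocorticoid-linked genes and of 12 genes called lower in GRmKO in both pairs, with 1 point per gastrocnemius library; blue is GRf/f, red is GRmKO, filled circles are vehicle and open triangles are CORT. Fkbp5 runs from 20.8 to 355 CPM, and in the right panel both red points lie left of both blue points for each gene but Hspa1a.

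The largest falls were mostly seen in both pairs. Among the 12 largest falls by the naming rule, 7 were also called lower in the CORT pair, and in those 7 both GRmKO libraries were at least 2-fold below both GRf/f libraries. Odf3l2 had 44.5 CPM in GRf/f vehicle, 1.89 CPM in GRmKO vehicle, 163 CPM in GRf/f CORT and 1.82 CPM in GRmKO CORT (log2 change under vehicle -4.23, interval -5.07 to -4.09). The gene lies on chromosome 10 at 79639526 to 79645738 (GRCm38), and it was listed at 0 in the vehicle libraries of liver and gonadal WAT. Zkscan3, a zinc finger protein, was 18.0 and 1.09 CPM under vehicle and 18.4 and 3.56 CPM under CORT. Leng8 was 119 and 16.8 CPM under vehicle and 119 and 18.9 CPM under CORT, so that treatment changed it little in either genotype. Pnisr, which encodes a protein of nuclear speckles, was 45.1 and 6.78 CPM under vehicle and 61.8 and 6.14 CPM under CORT. The predicted genes Gm47283 and Gm9821 completed this group, with log2 changes of -2.53 and -2.41 under vehicle.

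The other 5 of the largest falls were set apart by a vehicle library at least 2-fold from the other 3. Gm8797 had 20.04 CPM in GRf/f vehicle and between 0.32 and 0.46 CPM in the other 3 libraries; it is a predicted gene, and near-identical copies can share its reads. Pan2, a subunit of a poly(A) deadenylase, was 13.2 CPM in GRf/f vehicle and 1.51 CPM in GRmKO vehicle, with 6.41 and 4.18 CPM in the CORT pair. P4ha1, a collagen prolyl hydroxylase, was 5.05 CPM in GRmKO vehicle and 26.3 CPM or more in the other 3. Kat6a, a histone acetyltransferase, was 2.92 CPM in GRmKO vehicle and at least 17.2 CPM elsewhere. Zfp362, a zinc finger protein, was 18.0 CPM in GRf/f vehicle and 2.57 CPM in GRmKO vehicle, and it was also called lower in GRmKO liver.

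To show what the genes lower in both pairs look like at their starts, RefSeq promoters (GRCm38.p6, 250 bases before to 50 bases after the start) were searched for the hexamers of the glucocorticoid response element, AGAACA and TGTTCT, and for the short core ACANNNTGT. Each motif includes its own reverse complement in the search, so both strands were covered, and the core overlaps a pair of hexamers where these are spaced by 3 bases. Of the 74 genes called lower in both pairs, 55 had a promoter in the RefSeq table. A hexamer was found in 9 of them (16.4%), against 15.4% of 10623 tested genes with a promoter, and the core in 2 (3.64%), against 5.44%. The shares were near the background, and a match is only a run of letters. The 4 matched genes with the largest falls are printed 5′ to 3′, with the matched letters in capitals.
Zcchc7 (chr4:44756309-44756608, plus strand): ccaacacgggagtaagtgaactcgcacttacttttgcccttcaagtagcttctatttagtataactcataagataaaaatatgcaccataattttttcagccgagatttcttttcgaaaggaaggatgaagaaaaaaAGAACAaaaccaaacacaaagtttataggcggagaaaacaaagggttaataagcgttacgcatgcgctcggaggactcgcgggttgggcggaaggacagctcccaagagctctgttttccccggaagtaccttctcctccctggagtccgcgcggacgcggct
Kcnf1 (chr12:17176839-17177138, minus strand): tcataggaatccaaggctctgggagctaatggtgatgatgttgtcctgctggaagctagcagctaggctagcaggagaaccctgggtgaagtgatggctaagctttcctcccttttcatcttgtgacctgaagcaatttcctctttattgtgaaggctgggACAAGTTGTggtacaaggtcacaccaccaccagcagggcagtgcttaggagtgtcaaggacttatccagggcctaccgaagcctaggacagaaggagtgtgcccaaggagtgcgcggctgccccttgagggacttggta
Slc38a4 (chr15:97020310-97020609, minus strand): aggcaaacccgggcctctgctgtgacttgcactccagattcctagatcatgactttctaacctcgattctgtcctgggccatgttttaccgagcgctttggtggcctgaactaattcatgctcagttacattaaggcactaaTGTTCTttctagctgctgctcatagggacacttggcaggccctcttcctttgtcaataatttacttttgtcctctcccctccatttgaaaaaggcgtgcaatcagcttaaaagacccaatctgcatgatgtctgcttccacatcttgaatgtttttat
Slc16a3 (chr11:120948817-120949116, plus strand): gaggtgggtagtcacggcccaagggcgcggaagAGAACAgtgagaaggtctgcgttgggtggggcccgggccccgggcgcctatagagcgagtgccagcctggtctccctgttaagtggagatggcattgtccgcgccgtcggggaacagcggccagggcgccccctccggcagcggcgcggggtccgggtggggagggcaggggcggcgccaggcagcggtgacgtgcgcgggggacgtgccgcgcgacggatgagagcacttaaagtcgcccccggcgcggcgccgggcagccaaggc
Zcchc7, which encodes a zinc knuckle protein of nuclear RNA surveillance, was 34.2 and 6.52 CPM in the GRf/f and GRmKO vehicle muscles. Kcnf1, a modifier subunit of potassium channels, was 11.4 and 2.95 CPM, and 37.3 and 0.886 CPM in the CORT pair. Slc16a3, the lactate exporter MCT4, was 376 and 138 CPM, and 312 and 121 CPM under CORT. Slc38a4 is described below with the amino acid transporters.

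Genes of muscle protein breakdown, the program for which GR is best known in this tissue, differed little under vehicle. Of 20 FoxO and ubiquitin ligase genes tested, 1 fell and none rose (median log2 change -0.25, and -0.21 after length centring). That gene was Foxo1, a transcription factor of the atrophy program, at 87.8 CPM in GRf/f vehicle and 37.0 CPM in GRmKO vehicle, and 147 and 33.4 CPM under CORT. Fbxo32, the muscle ubiquitin ligase atrogin-1, had 287 CPM in GRf/f vehicle and 316 CPM in GRmKO vehicle (log2 change 0.14, interval 0.08 to 0.19). Under CORT it was 913 and 359 CPM, so that only the CORT-treated control stood high. Trim63, the ubiquitin ligase MuRF1, was 244 and 163 CPM under vehicle, a log2 change of -0.58 that was not called, and 425 and 211 CPM under CORT. Foxo3 was 49.3 and 36.4 CPM under vehicle and was not called. Of 31 proteasome subunits only Psma3 was called, from 16.8 to 45.5 CPM, and the list median went from 0.27 to -0.05 after length centring. Of 27 autophagy and lysosome genes, Ctsl, a lysosomal cathepsin, rose from 60.7 to 120 CPM, and the call was lost under TMM factors and after length centring.

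Growth regulators moved in both directions, with 3 of 29 higher, 2 lower and a median of 0.06. Mstn, which encodes myostatin, the secreted brake on muscle growth, fell from 82.1 to 42.3 CPM (log2 change -0.95, interval -1.08 to -0.84). Its CORT pair was 105 and 58.7 CPM, in the same direction and not called. Gadd45g, a stress-response gene, fell from 88.4 to 17.8 CPM, with 26.2 and 22.8 CPM under CORT, so that the vehicle control alone was high. Its relative Gadd45a rose from 13.4 to 35.9 CPM. Ddit4l, an inhibitor of mTORC1 signaling, rose from 233 to 491 CPM and was 289 and 552 CPM under CORT. Depp1, a FoxO-induced gene, rose from 21.8 to 53.6 CPM, and was 19.97 and 12.8 CPM under CORT, a difference the other way that was not called.

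Amino acid and polyamine genes were lower more often than higher, with 6 of 31 lower and 1 higher (median -0.10, and -0.21 after length centring). The background was 1.62% lower among all genes. Slc38a4, a sodium-coupled neutral amino acid transporter, was 117 CPM in GRf/f vehicle, 42.0 CPM in GRmKO vehicle, 140 CPM in GRf/f CORT and 47.0 CPM in GRmKO CORT (log2 change under vehicle -1.47, interval -1.59 to -1.36). Its relative Slc38a3 was 69.7 and 32.4 CPM, and 108 and 30.0 CPM under CORT. Slc38a2, the third of these transporters, was 233 and 120 CPM, and 546 and 155 CPM under CORT, and its vehicle call was lost after length centring. All 3 transporters were called lower in both pairs. None of the 3 polyamine enzymes was called lower in the CORT pair, though Odc1 and Smox were lower in GRmKO there too. Odc1, which makes putrescine, fell from 152 to 65.1 CPM (CORT pair 96.2 and 54.9), and Smox, spermine oxidase, fell from 283 to 107 CPM (CORT pair 79.2 and 60.8). Amd1, which supplies the aminopropyl groups of spermidine and spermine, fell from 2099 to 982 CPM, while in the CORT pair it was 401 CPM in GRf/f and 820 CPM in GRmKO and was called higher. Reads of Amd1 can be shared with its near-identical copy Amd2. The single member called higher, Bcat2, the mitochondrial branched-chain aminotransferase, was 4.59 CPM in GRf/f vehicle and between 33.2 and 52.1 CPM in the other 3 libraries.

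Of 36 genes of glucose uptake, insulin signaling and glycogen, 3 fell and 1 rose (median -0.18). Ppp1r3c, which targets protein phosphatase 1 to glycogen and favors its synthesis, was 517.4 CPM in GRf/f vehicle and 131 CPM in GRmKO vehicle, and 1472 and 233 CPM under CORT. It was thus lower in GRmKO in both pairs, by -1.98 (interval -2.04 to -1.92) under vehicle. Pik3ca, the catalytic subunit of PI3-kinase, fell from 40.9 to 18.4 CPM, a call lost after length centring. Pdp1, the phosphatase that reactivates pyruvate dehydrogenase and so opposes Pdk4, rose from 22.97 to 45.9 CPM, and was 8.72 and 28.3 CPM under CORT; its vehicle call was lost under TMM factors. None of 30 genes of fatty acid uptake and oxidation was called (median -0.04). Of 33 respiratory chain genes 3 rose: Cycs (cytochrome c), Cox8b and Cox7a1. Cycs went from 145 to 305 CPM and kept its call after length centring, which the calls on the 2 short cytochrome oxidase transcripts did not, and the list median of 0.19 became -0.16.

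Clock genes had 2 of 20 lower and none higher, Per1 and Nfil3 (median -0.19). Nfil3, a repressor of D-box genes, was 42.1 and 20.7 CPM under vehicle and 131 and 33.4 CPM under CORT. Of 22 heat shock genes (median -0.03), only Hspa1a and Hspa1b fell, by 1.13 and 1.08 on the log2 scale; these near-identical genes share reads and count as 1 observation. Of 19 immediate-early genes 3 fell and 1 rose (median -0.06). Nr4a1, an orphan nuclear receptor, fell from 418 to 169 CPM but was 274 and 405 CPM in the CORT pair. Nr4a3, its relative, fell from 14.6 to 3.75 CPM. Junb, an AP-1 subunit, rose from 63.8 to 125 CPM, and was 32.6 and 166 CPM under CORT; its vehicle call was lost after length centring. Among 17 secreted factors (median 0.23), Vegfa fell from 197 to 86.8 CPM and Serpinf1, an antiangiogenic serpin, rose from 59.5 to 120 CPM, in addition to Mstn, which fell. The call on Serpinf1 was lost after length centring.

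**Figure D3:**
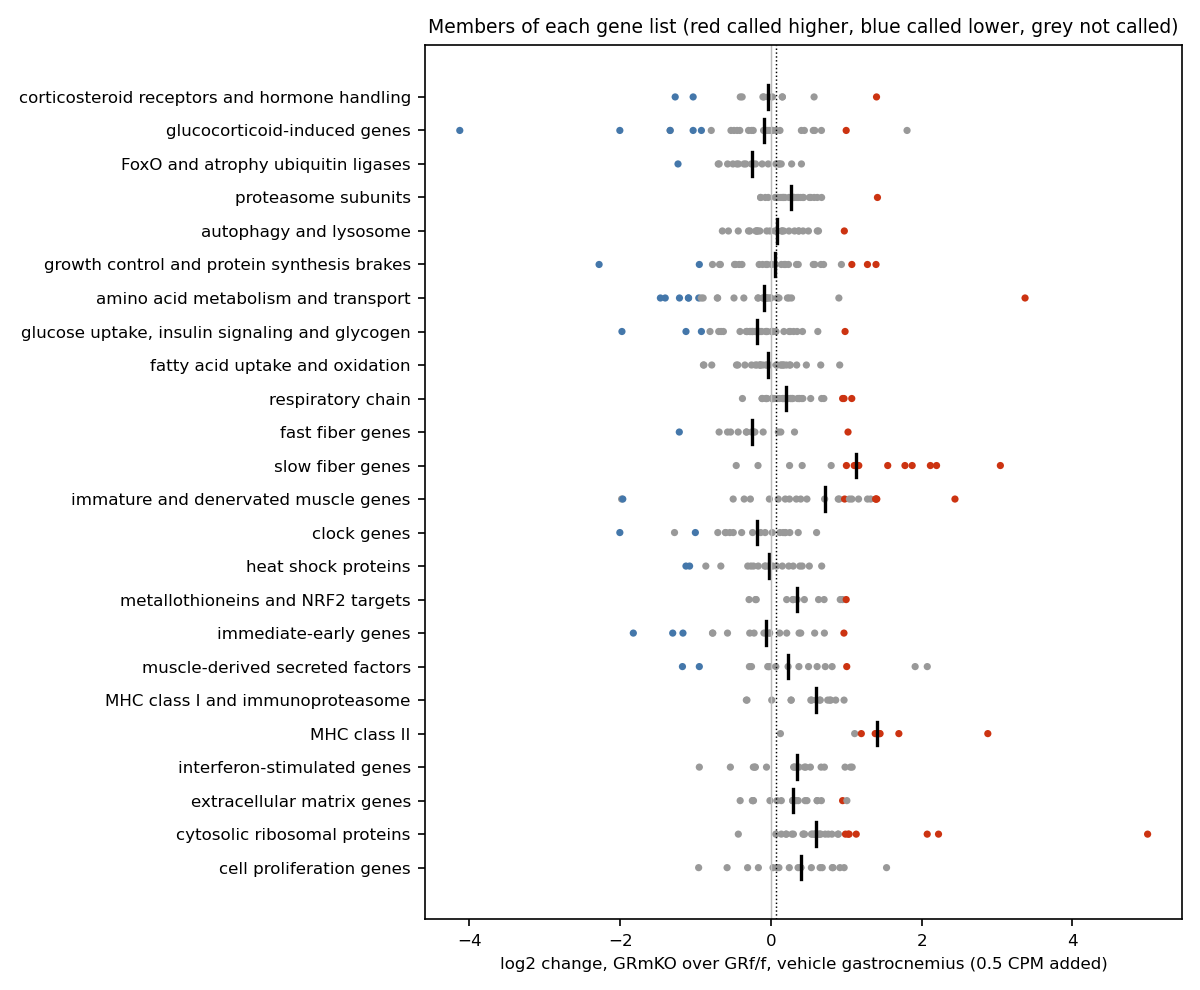
Log2 change of every tested member of the 24 pathway lists in the vehicle pair, with red points called higher, blue points called lower, grey points not called, black bars at list medians and a dotted line at the median of all genes (0.07). Slow fiber genes and MHC class II genes lie farthest right, with medians of 1.13 and 1.41.

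Slow-fiber genes formed the group with the most calls among muscle genes. Of 15 tested, 10 rose and none fell, with a median log2 change of 1.13, against 1.83% higher and a median of 0.07 among all genes. After length centring 9 were called and the median was 1.00. Tnnc1, slow troponin C, was 38.3 CPM in GRf/f vehicle and 178 CPM in GRmKO vehicle (log2 change 2.20, interval 2.10 to 2.33). In the CORT pair Tnnc1 was 44.5 and 78.1 CPM, in the same direction and not called. Tpm3, slow tropomyosin, rose from 51.3 to 224 CPM, and was 44.4 and 96.7 CPM under CORT. Its entry is not particular to muscle, with 64.1 CPM in GRf/f vehicle liver and 193 CPM in GRf/f vehicle gonadal WAT. Tnnt1 and Tnni1, the slow troponins T and I, rose from 27.8 to 103 CPM and from 33.0 to 114 CPM. Myl2, a slow myosin light chain, rose from 120 to 353 CPM, and Myh7, the slow myosin heavy chain, from 180 to 393 CPM. Myh7 did not keep its direction in the CORT pair, where it was 204 CPM in GRf/f and 178 CPM in GRmKO. Sln, sarcolipin, an inhibitor of the calcium pump of the sarcoplasmic reticulum, rose from 2.87 to 27.3 CPM, and was 2.99 and 4.98 CPM under CORT. For these genes the GRmKO vehicle library was the highest of the 4. In the CORT pair only Tpm3 and Myl3 of the list were called higher, and the median was 0.56. After length centring neither was called in the CORT pair, whose median became 0.18.

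Fast-fiber genes leaned the other way, with few calls. Of 15 tested, 11 had a log2 change below 0, as did 5972 of all 13543 genes tested. The list, Myh4 included, summed to 126004 CPM in GRf/f vehicle and 95161 CPM in GRmKO vehicle, and to 126091 and 117805 CPM under CORT. Myh4, the myosin heavy chain of the fastest fibers, fell and Mylpf, a fast myosin light chain, rose, and the median was -0.26. The call on Mylpf was lost after length centring, and the median became -0.41. Myh4 was 35764 CPM in GRf/f vehicle, 15392 CPM in GRmKO vehicle, 30831 CPM in GRf/f CORT and 25114 CPM in GRmKO CORT, so the GRmKO vehicle library was again the one apart. The 14 general markers of skeletal muscle, Myh4 among them, summed to 160473 CPM in GRf/f vehicle and 114995 CPM in GRmKO vehicle, and to 153288 and 142338 CPM in the CORT pair, with no marker at 0. Of these markers 1 was called higher and 2 lower, the second being Ryr1, the calcium release channel (median -0.32); after length centring Myh4 alone was called.

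Genes of immature or denervated muscle had 5 of 25 higher and 1 lower, with a median of 0.71 (0.68 after length centring). In the CORT pair 3 of the list were called higher and 3 lower, and the median was 0.19. Chrna1, the alpha subunit of the muscle acetylcholine receptor, was 18.6 and 103 CPM under vehicle and 27.4 and 61.0 CPM under CORT, and was called higher in both pairs (log2 change under vehicle 2.44, interval 2.31 to 2.64). Actc1, cardiac alpha-actin, an actin of developing muscle, was 500.6 and 1312 CPM under vehicle. With CORT, Actc1 was 25.6 CPM in GRf/f and 1141 CPM in GRmKO, a log2 change of 5.45. The myogenic factors Myog (4.89 and 13.8 CPM) and Myod1 (36.1 and 71.6 CPM) were called higher under vehicle, and both calls were lost after length centring. Under CORT, Myog was 12.6 and 10.6 CPM and Myod1 was 40.2 and 46.0 CPM, and neither was called. Musk, the receptor kinase that organizes the neuromuscular junction, fell from 20.9 to 4.98 CPM. Its CORT pair was 14.2 and 7.59 CPM, in the same direction and not called.

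**Figure D4:**
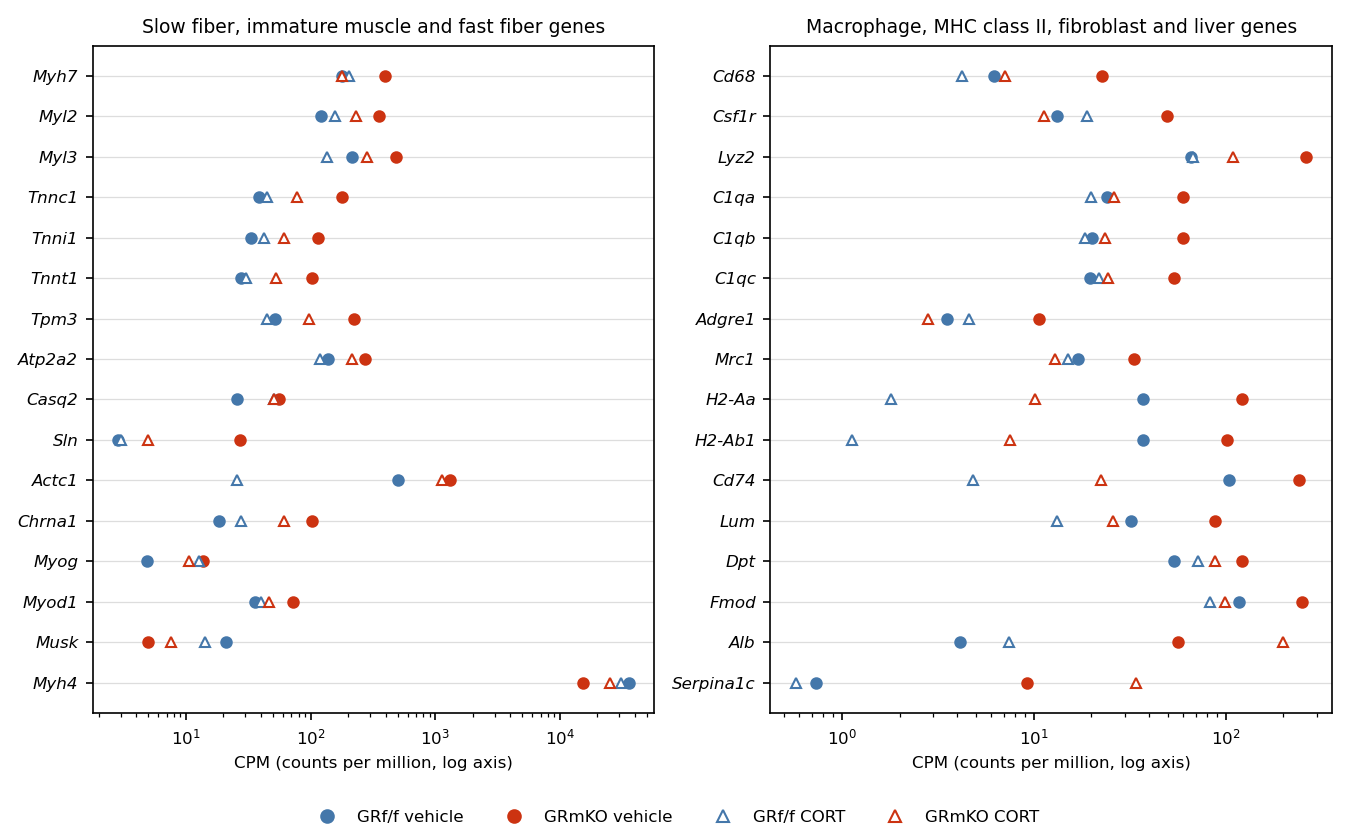
CPM (log axis) of slow fiber, immature muscle and fast fiber genes on the left and of macrophage, MHC class II, fibroblast and liver genes on the right, with 1 point per gastrocnemius library; blue is GRf/f, red is GRmKO, filled circles are vehicle and open triangles are CORT. The filled red point (GRmKO vehicle) lies farthest right for most slow fiber and macrophage genes, and Alb reaches 198 CPM in GRmKO CORT.

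Markers of cells other than muscle fibers were higher in the GRmKO vehicle library in several lists. In these pooled whole-muscle samples more cells of a type and more RNA per cell cannot be told apart. Of 9 macrophage markers tested 6 rose and none fell, with a median of 1.47 (1.19 after length centring, with 7 higher). Their summed level was 179 CPM in GRf/f vehicle, 573 CPM in GRmKO vehicle, 180 CPM in GRf/f CORT and 226 CPM in GRmKO CORT, so the GRmKO vehicle library stood alone; Itgam was listed at 0 in GRf/f vehicle and in GRmKO CORT. Lyz2, lysozyme of myeloid cells, rose from 66.2 to 264 CPM, and Csf1r, the receptor that macrophages need to survive, from 13.2 to 49.7 CPM. Csf1r was 19.1 and 11.4 CPM in the CORT pair. The complement genes C1qa, C1qb and C1qc rose together, by 1.31, 1.55 and 1.44 on the log2 scale. Among the 12 largest rises by the naming rule, Tyrobp (a myeloid adaptor protein), Ctss (cathepsin S) and Mpeg1 (macrophage perforin-2) are also genes of myeloid cells. Ctss went from 5.29 to 42.0 CPM. Tyrobp was also called higher in GRmKO gonadal WAT under vehicle, with a log2 change of 1.02.

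Of 8 MHC class II genes, 6 rose and none fell (median 1.41, and 1.10 after length centring with 4 called). H2-Aa was 37.2 and 122 CPM under vehicle and 1.81 and 10.2 CPM under CORT. Both CORT libraries thus lay far below both vehicle libraries, and within each pair GRmKO was higher. Cd74, the invariant chain, was 105 and 241 CPM under vehicle and 4.85 and 22.5 CPM under CORT, and its vehicle call was lost after length centring. None of the 15 MHC class I genes, 18 interferon-stimulated genes and 19 proliferation genes tested was called, and the medians were 0.60, 0.35 and 0.39. Of 10 fibroblast and tendon markers 4 rose (Lum, Dpt, Fmod and Thbs4; median 1.02), and the summed level was 1350 CPM in GRf/f vehicle and 2251 CPM in GRmKO vehicle, with no marker at 0. Lum, the proteoglycan lumican, went from 32.1 to 88.2 CPM. Of 20 extracellular matrix genes only Thbs4 was called (median 0.29). The call on Thbs4 was lost after length centring, which left 3 fibroblast and tendon calls and no matrix gene called. Of 7 Schwann cell markers tested 1 fell and none had a log2 change above 0 (median -0.53), with sums of 424 and 270 CPM. Of 10 endothelial markers 1 fell (median 0.10), and among 13 adipocyte and 6 smooth muscle markers none was called (medians 0.09 and -0.02; the adipocyte median was -0.12 after length centring). Of 4 B and plasma cell markers, Ighm rose from 61.7 to 140 CPM (median 0.01, and -0.38 after length centring). What part differing cell content had in any result was not tested.

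A small set of liver and blood transcripts was also higher. Alb, serum albumin, was 4.13 CPM in GRf/f vehicle, 56.4 CPM in GRmKO vehicle, 7.47 CPM in GRf/f CORT and 198 CPM in GRmKO CORT, against 49853 CPM in GRf/f vehicle liver. The 20 hepatocyte markers summed to 51.0 CPM in GRf/f vehicle and 172 CPM in GRmKO vehicle, and to 116 and 513 CPM in the CORT pair; Apoa2 and Apoc3 were listed at 0 in GRf/f vehicle. Of the 16 tested, 3 were called higher (2 after length centring) and all 16 had a log2 change above 0, from 0.35 to 3.62; the median was 2.67 with 0.1 CPM added and 1.21 with 2 CPM added. The other liver-rich genes with the largest changes were Mup22, Serpina1c, Serpina3k and Mup19, members of families whose near-identical genes share reads. Of all 467 calls, 17 were of genes at least 10-fold richer in vehicle-treated GRf/f liver or gonadal WAT. The 7 erythroid markers summed to 799 and 1333 CPM under vehicle, with Hbb-bt called higher among 6 tested (median 0.78), a call that was lost after length centring.

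Ribosomal protein genes, which are short, were higher as a group. Of 32 on the list 7 rose and 31 had a log2 change above 0, with a median of 0.60 that became 0.22 after length centring, with 3 called. The median of the CORT pair was 0.50, and it became -0.01 after length centring. Rps27a, which encodes a ubiquitin fused to a ribosomal protein, had the largest rise of all by the naming rule. It was 2.64 CPM in GRf/f vehicle, 99.6 CPM in GRmKO vehicle, 53.9 CPM in GRf/f CORT and 83.6 CPM in GRmKO CORT (37.8-fold, log2 interval 4.85 to 5.67), so that the GRf/f vehicle library alone was low. The same pattern held for Abca3, Ndufa3, Bcat2, Rpl38, Slc25a51, Rpl30 and Dennd1b, which makes 8 of the 12 largest rises in which GRf/f vehicle was at least 2-fold below each of the other 3 libraries. In the other 4, Sln, Tyrobp, Ctss and Mpeg1, GRmKO vehicle was at least 2-fold above each of the others. Ndufa3, a complex I subunit, was the only one of the 12 also called higher in the CORT pair, a call lost there after length centring. Ribosomal protein genes have many processed copies that can share their reads.

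The vehicle difference was then set beside the CORT pair, which has its own libraries. Of the 467 vehicle calls, 399 (85.4%) had the same sign in the CORT pair, and so did 66.7% of all 13543 genes tested. After length centring these shares were 76.1% of 356 calls and 61.6% of all genes. In the CORT pair 1.68% of genes were called higher and 2.22% lower. There were 74 genes called lower in both pairs, which is 33.8% of the vehicle calls and 24.7% of the CORT calls in that direction, and 45 called higher in both, which is 18.1% and 19.7%. Of these, 60 lower and 15 higher genes were also called in both pairs after length centring. A 2-fold step between the genotypes held less often. Both GRmKO libraries lay at least 2-fold below both GRf/f libraries for 54 of the 219 genes called lower (24.7%). They lay at least 2-fold above for 30 of the 248 called higher (12.1%). The same share over all genes tested was not computed, and called genes were picked for a large vehicle difference. Without regard to step, the 2 genotypes did not overlap for 174 of the genes called lower (79.5%) and 193 of those called higher (77.8%). The share among all genes tested was 48.1%. Calls were picked for a gap between the 2 vehicle libraries, which by itself favors non-overlap, so these shares are no independent support. Called in opposite directions in the 2 pairs were 11 genes.

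**Figure D5:**
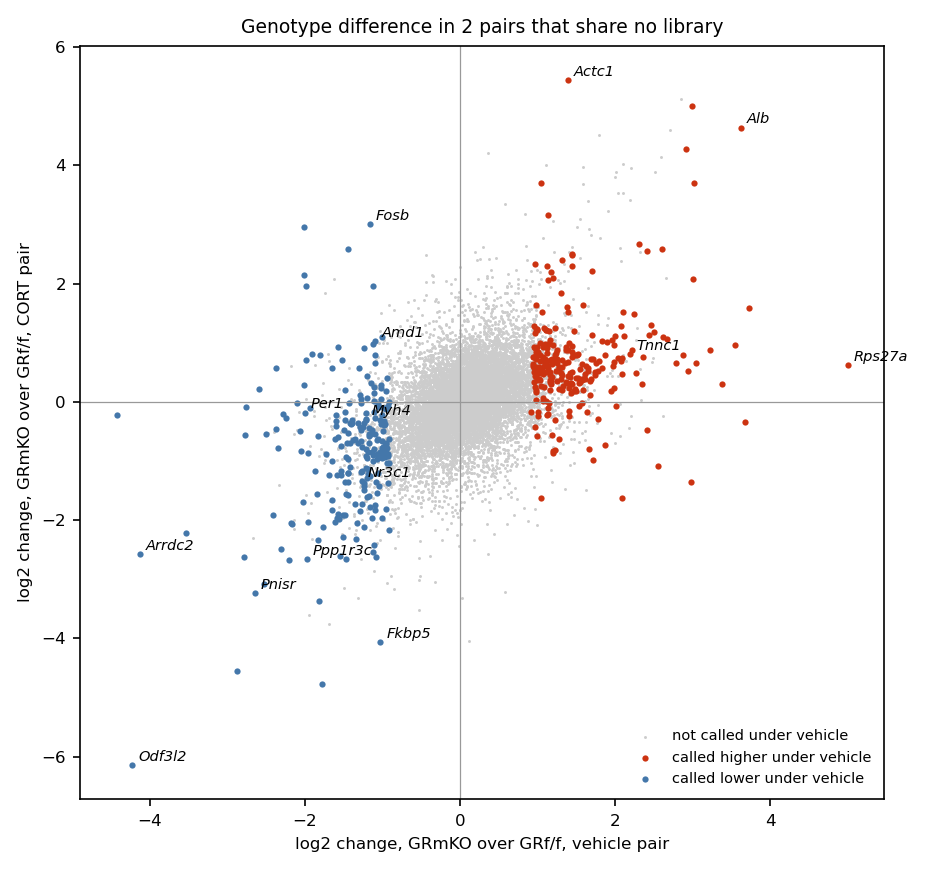
Log2 change of GRmKO over GRf/f for 13543 genes in the vehicle pair (x axis) and in the CORT pair (y axis), which share no library; red points were called higher and blue points lower under vehicle. Odf3l2 (-4.23 and -6.14), Arrdc2 and Pnisr lie low in both, and Fosb and Amd1 are lower under vehicle and higher under CORT.

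Some vehicle differences were of similar size in the CORT pair and others were not. Nr3c1 (-1.27 and -1.34), Leng8 (-2.79 and -2.62), Slc38a4 (-1.47 and -1.57) and Slc16a3 (-1.44 and -1.36) had nearly the same log2 change in both. Fkbp5 (-1.03 and -4.06), Kcnf1 (-1.78 and -4.77) and Hspa1a (-1.13 and -2.53) differed more between genotypes under CORT. Per1 (-2.01 and -0.18), Pdk4 (-0.92 and 0.00) and Myh4 (-1.22 and -0.30) differed more under vehicle. None of these contrasts between pairs could be tested with 1 library per group.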

How the data were processed

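RNA from 3 mice per group was pooled into 1 library, read as paired 100-base reads, and quantified by the authors with Salmon 1.2.1 against GENCODE M20 coding transcripts (mm10) and tximport. The deposited values are estimated counts, 1 per gene and library; the methods name both tximport's summary to genes and, for names that occurred more than once, keeping the entry with most counts. Each entry carries 1 transcript identifier, so the level of the values is not settled here. CPM is the value over the library total. Genes above 0 in all 4 gastrocnemius libraries were tested. Calls used a Python version of the study's NOISeq simulation (20% of depth, 5 simulated samples, variability 0.02, probability at least 0.9), checked on simulated data. Intervals are exact (Clopper-Pearson, 95%) on rounded counts, without the added 0.5 CPM. Transcript lengths came from GENCODE M21 (GRCm38), and length centring used a running median over 500 transcripts with a mean of at least 50 counts. Named genes were 12 fixed genes, the 12 largest rises and falls among calls with at least 10 CPM that were not rich in liver or fat, the 5 largest changes among rich genes, and up to 6 called members of each of 24 pathway lists. Kcnf1, Slc16a3, Zcchc7, cell type markers and genes given as contrasts were added after their values were seen. Some called genes are not reported here. The comparison, its 24 pathway and 10 cell type lists and the naming rule were chosen with earlier results of these data known. Python 3 with numpy, pandas, scipy and numba was used.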

Additional observations from a re-analysis of the deposited data

Results flagged for a closer look

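In 11 genes the genotype difference was called in one direction under vehicle and in the other under CORT, and 10 of them are given here. With 1 library per group the difference between the pairs was not tested. Lower in GRmKO under vehicle and higher under CORT were Kdm2b (log2 changes -2.01 and 2.15), Cish (-1.98 and 1.97), Shoc2 (-1.45 and 2.58), Fosb (-1.17 and 3.01), Chac1 (-1.12 and 1.96) and Amd1 (-1.10 and 1.03). Higher under vehicle and lower under CORT were Olfml3 (1.04 and -1.62), G0s2 (1.71 and -0.99), Cdipt (2.09 and -1.62) and Dennd1b (2.55 and -1.09). Fosb, an immediate-early transcription factor, was 32.9 CPM in GRf/f vehicle, 14.4 CPM in GRmKO vehicle, 4.41 CPM in GRf/f CORT and 39.0 CPM in GRmKO CORT. Cish, a cytokine-induced inhibitor of STAT5 signaling, was 32.3, 7.80, 2.06 and 9.49 CPM in the same order, and Chac1, a glutathione-degrading enzyme of the stress response, was 67.3, 30.6, 24.1 and 95.3 CPM. For Shoc2, a scaffold of the Ras pathway, GRf/f CORT stood lowest at 2.90 CPM, with 38.0, 13.6 and 19.8 CPM in GRf/f vehicle, GRmKO vehicle and GRmKO CORT.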

How the results depend on the processing

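The 248 higher and 219 lower calls and the 399 with the same sign in the CORT pair became 672, 558 and 1030 for genes averaging 50 or more counts, 812, 645 and 1214 at a probability of 0.8, and 1385, 1018 and 1941 at full simulated depth. Dividing by transcript length left 111 lower calls, and length centring, chosen after the trend with length was seen, left 161 higher calls. The cause was not tested. Under the other alternatives (TMM and median-of-ratios factors, no scaling, both vehicle libraries only, a 2-fold rule, liver- or fat-rich genes left out, another seed) all 3 counts stayed within 1.5 times. No named gene that was called changed direction under any alternative run; 9 of 94 named genes lost their call under TMM factors and 18 after length centring. No library could be left out, because each group has 1. No paired analysis was possible because each group has 1 library. A count of 3 is 0.147 to 0.155 CPM here, which is the limit of detection by counting alone.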

Other observations

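Further genes among the 74 called lower in both pairs were chosen after their values were seen. Rsrp1, an arginine- and serine-rich protein, was 199 CPM in GRf/f vehicle, 72.8 CPM in GRmKO vehicle, 273 CPM in GRf/f CORT and 118 CPM in GRmKO CORT. Tardbp, the RNA-binding protein TDP-43, was 32.9, 11.2, 41.1 and 10.6 CPM in the same order. Ccnl2, a cyclin of nuclear speckles, was 23.5, 10.05, 25.0 and 11.2 CPM, and Ogt, the O-GlcNAc transferase, was 157, 65.8, 192 and 68.1 CPM. In each of these the GRmKO libraries lay below the GRf/f libraries, and in the GRf/f libraries the CORT value was above the vehicle value.

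Lpin1, a phosphatidate phosphatase also called lower in both pairs, was 500, 211, 518 and 200 CPM in GRf/f vehicle, GRmKO vehicle, GRf/f CORT and GRmKO CORT. Xirp1, an actin-binding protein of damaged myofibrils, was 308, 143, 1731 and 322 CPM. Called higher in both pairs were Socs3, a feedback inhibitor of cytokine signaling (15.3, 33.9, 12.8 and 64.9 CPM), and Gamt, the last enzyme of creatine synthesis (12.9, 28.9, 2.27 and 24.4 CPM). For Gamt the GRf/f CORT library was the lowest of the 4, and its vehicle call was lost after length centring. Ttn, titin, the longest transcript of muscle, was 4681 and 1951 CPM under vehicle and 6137 and 1849 CPM under CORT, and its vehicle call was lost after length centring.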
